A study of Mus musculus with 7 samples.

Results

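Scavenger receptors are cell surface proteins that bind modified lipoproteins, dying cells, microbes and their debris and carry them into the cell. In the airspace of the lung they are known chiefly from macrophages, which use them to clear inhaled particles, surfactant lipid and cells that die in inflammation. They are unrelated or only partly related proteins, grouped into classes by structure, that share this broad choice of ligands.

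The genes described here are 10 receptors usually listed under macrophages, chosen by symbol: Marco, Msr1, Cd36, Scarb1, Olr1, Cd163, Cd163l1, Mrc1, Cd93 and Cd68. All 10 were found among the 16476 genes of the deposited table, and 9 passed the minimum for testing, a mean normalized count of 10 over the 7 libraries. Cd163 did not. RNA came from bronchoalveolar lavage, cells rinsed out of the airspaces, of C57BL/6 mice at day 3 after lipopolysaccharide, a component of bacterial walls, was put into the trachea. The Ntn1 knockout group (3 libraries) carried Netrin1loxp/loxp with LysM Cre, and the control group (4 libraries) carried LysM Cre alone. By their labels all 7 libraries thus carry Cre in the lysozyme M locus, which is active in macrophages, monocytes and neutrophils, and all received lipopolysaccharide. An untreated group was not analysed here. The comparison asks what differs in airspace cells when cells of the myeloid lineage lack netrin-1, a secreted guidance protein. Neutrophils had been depleted with antibodies before RNA was taken. Whether each library is 1 mouse is not given in the labels, and the spread behind each p-value may therefore not be that between mice.

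Between 9903284 and 13353733 reads stood behind a library. Ntn1 itself was close to absent, with 1, 0 and 1 reads in knockout replicates 1 to 3 and 1, 4, 9 and 3 in control replicates 1 to 4, so that the deletion could not be checked at this depth. Lyz2, the gene of the Cre locus, split the controls, with 76927 and 118781 normalized counts in control replicates 1 and 4 and 770.1 and 721.3 in replicates 2 and 3, against 935.9, 1052 and 909.7 in the knockouts. The labels do not say whether all controls carry the same number of Cre copies, and the cause of this split was not tested. For the 10 receptors and the related genes named, calls that change without either pair of controls are given with the gene. The general macrophage genes Adgre1 and Csf1r were abundant in every library, from 6126 to 7132 normalized counts of Adgre1 in knockouts and from 7657 to 9359.5 in controls, and all 8 natural killer cell markers were called higher in the knockouts, whose summed counts were 43850 to 48075 against 8837 to 14818. In bulk RNA, fewer cells of a type and less RNA per cell cannot be told apart.

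Of the 9 receptors tested, 4 fell in the knockouts and 0 rose. The 4 were Cd93, Cd163l1, Msr1 and Cd68, and for each the highest knockout library lay below the lowest control. Marco, Cd36, Scarb1, Olr1 and Mrc1 did not pass the test, and their groups overlapped. Calls were made with limma on log2(normalized count + 1) at a Benjamini-Hochberg adjusted p under 0.05 over all 12963 genes tested. By the same rule 21.7% of all genes were called, 10.4% higher and 11.3% lower in knockouts. In 33.8% of all genes the groups did not overlap, and in 16.3% they did not overlap with the knockouts lower. The median log2 fold change was -0.16 over the 9 receptors and 0.0138 over all genes tested. The count of 4 lower and 0 higher was the same with each library left out in turn; 0 receptors were higher at an unadjusted p under 0.05, and edgeR and DESeq2 on the recovered reads also called 0 higher.

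**Figure D1:**
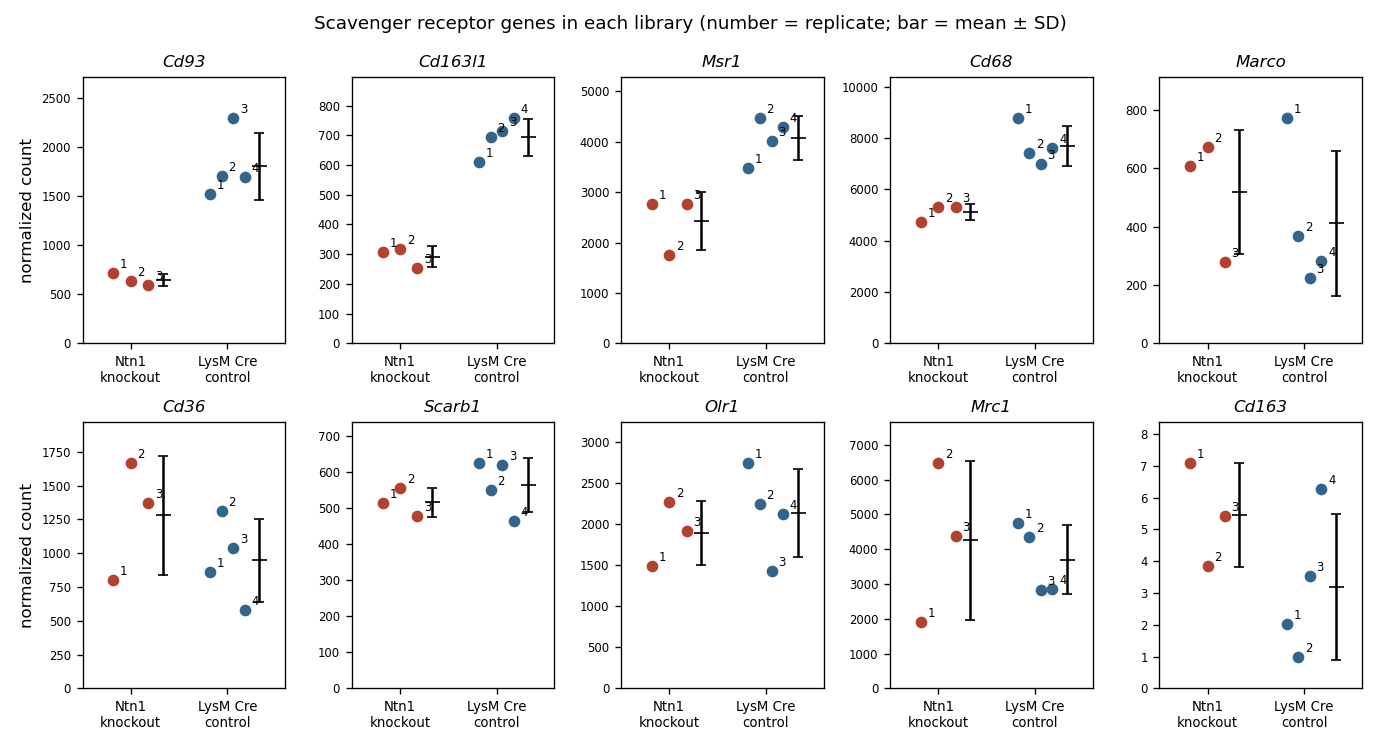
Normalized counts (vertical axes, each starting at 0) of the 10 receptor genes in the 3 Ntn1 knockout libraries (red) and the 4 LysM Cre control libraries (blue); the number beside a point is its replicate and the bar is the mean ± SD. The groups are separate for Cd93, Cd163l1, Msr1 and Cd68 and overlap for the other 6 genes.

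Promoter sequences show what is and is not shared by these genes at their start sites. RefSeq windows on GRCm38.p6, from 250 bases before to 50 bases after the start, were matched by symbol for 7 of the 10 receptors. Among the 4 that fell, windows were at hand for Cd68 and Cd163l1, and Olr1, which was not called, is shown beside them. Capitals mark GAGGAA, the core bound by the myeloid factor PU.1, and TGANTCA, the AP-1 site, on either strand.
Cd68 (chr11:69666121-69666420, minus strand): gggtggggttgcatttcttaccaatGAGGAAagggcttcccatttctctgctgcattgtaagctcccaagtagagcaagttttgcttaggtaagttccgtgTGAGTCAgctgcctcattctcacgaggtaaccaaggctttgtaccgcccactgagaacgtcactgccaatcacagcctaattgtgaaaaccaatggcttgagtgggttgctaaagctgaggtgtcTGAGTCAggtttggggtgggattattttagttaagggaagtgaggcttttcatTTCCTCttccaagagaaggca
Cd163l1 (chr7:140218017-140218316, plus strand): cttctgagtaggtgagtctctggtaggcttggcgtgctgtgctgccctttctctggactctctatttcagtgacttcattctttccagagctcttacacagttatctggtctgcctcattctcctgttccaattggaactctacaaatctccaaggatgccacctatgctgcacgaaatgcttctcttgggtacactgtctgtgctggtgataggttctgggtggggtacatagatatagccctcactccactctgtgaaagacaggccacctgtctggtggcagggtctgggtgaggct
Olr1 (chr6:129507116-129507415, minus strand): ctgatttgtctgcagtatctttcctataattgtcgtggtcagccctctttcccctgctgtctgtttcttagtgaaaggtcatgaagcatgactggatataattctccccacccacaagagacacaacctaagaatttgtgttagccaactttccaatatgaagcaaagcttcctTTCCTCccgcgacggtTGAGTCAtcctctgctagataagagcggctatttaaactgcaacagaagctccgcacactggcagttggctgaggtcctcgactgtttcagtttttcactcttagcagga

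The Cd68 window held GAGGAA at -225 and 29 and TGANTCA at -149 and -24, counted from the start base as 0, and also TTGCNNAA, a C/EBP core, at -43. The Olr1 window held GAGGAA at -76 and TGANTCA at -60. The Cd163l1 window held none of the 5 motifs searched (these 3, the E-box CACGTG and TATAAA, each on both strands). GAGGAA was in 28.1% of 32544 distinct RefSeq promoter windows of the same length, TGANTCA in 7.79%, TTGCNNAA in 10.8%, CACGTG in 7.17% and TATAAA in 13.6%. No 2 matches overlapped in the windows printed. Over the 7 windows matched, GAGGAA was in 4 (Cd68, Olr1, Marco and Mrc1) and TGANTCA in 2 (Cd68 and Olr1), and the Cd36 and Cd163 windows held neither. The Cd36 window (chr5:17835847-17836146, minus strand) lay inside the gene span used here (17781690 to 17888801), not at its upstream end. Olr1 was chosen for display because its window, like that of Cd68, holds both.

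Cd93 had the lowest fold change of the receptors. It encodes a C-type lectin-like glycoprotein of monocytes, other myeloid cells and endothelium, first named as a receptor for complement C1q and linked in mice to the uptake of dying cells. The gene (ENSMUSG00000027435) lies on GRCm38 chromosome 2, 148436640 to 148443563, minus strand. It had 716.9, 630.7 and 596.2 normalized counts in knockout replicates 1 to 3, against 1521, 1703, 2297 and 1689 in control replicates 1 to 4. The knockouts lay close together, all below the lowest control, and control replicate 3 was the highest library. Knockouts averaged 648 ± 62.2 (SD, n = 3) and controls 1802 ± 339.6 (SD, n = 4), and the mean in knockouts was 0.359 times that in controls. The limma estimate was -1.46 in log2 (SE 0.14, adjusted p = 0.000652). Leaving out a library in turn gave log2 fold changes between -1.54 and -1.34. Of 3 relatives with the same domain plan only Thbd, thrombomodulin, an anticoagulant receptor of endothelium and monocytes, was analysed here. It also lies on chromosome 2, at 148404466 to 148408188. Thbd had 99.4, 151 and 122.9 normalized counts in knockouts, against 186.9, 227, 283.2 and 184.3 in controls, and fell as well (log2 fold change -0.82, SE 0.19, limma adjusted p = 0.017, and adjusted p = 0.101 without both control replicates 2 and 3). Of the endothelial markers 4 of 8 were tested. Pecam1, which leukocytes also carry, was higher, and Kdr was lower, a call lost without knockout replicate 2 or 3 or control replicate 2 or 4 (adjusted p 0.0646 to 0.0846) and without either pair of controls. The 4 summed to 1619 to 2029 normalized counts in knockouts and 1189 to 1532 in controls. Without Pecam1 the other 3 (Cdh5, Kdr and Vwf) summed to 428.9, 618.2 and 523.05 in knockouts and 899.8, 714.3, 592.9 and 813.8 in controls, which overlap. Their part in the result was not tested.

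Cd163l1 is named for its likeness to Cd163, a chain of scavenger receptor cysteine-rich domains. In mice the same gene is also called Scart1 and is known from gamma delta T cells rather than from macrophages, so its place among macrophage receptors is a matter of the name. It lies on chromosome 7, 140218267 to 140231145, plus strand (ENSMUSG00000025461). The normalized counts were 306.2, 318.3 and 252 in knockout replicates 1 to 3 and 608.4, 692.8, 713.3 and 758.6 in control replicates 1 to 4. Every control stood well above every knockout, with little spread in either group. Means were 292.2 ± 35.3 (SD, n = 3) in knockouts and 693.3 ± 62.9 (SD, n = 4) in controls, a ratio of 0.421. The log2 fold change was -1.25 (SE 0.11, limma adjusted p = 0.000474). It stayed between -1.31 and -1.14 with single libraries left out.

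Genes of gamma delta T cells of the interleukin 17 type, a list drawn up after the value of Cd163l1 was seen, were mostly not called. Of 10 tested, 2 were lower, Blk among them, and 0 higher, with a median log2 fold change of -0.43. Over all genes tested 11.3% were lower and 10.4% higher. The summed counts were 1141 to 1681 in knockouts and 1337 to 2152 in controls, which overlap. Trdc, the constant segment of the T cell receptor delta chain, had 248.4, 207.7 and 217.7 normalized counts in knockouts and 253.9, 184.9, 223.9 and 358.6 in controls (log2 fold change -0.15, SE 0.20, adjusted p = 0.633). The call of Blk was lost without any library but control replicate 3 (adjusted p 0.0558 to 0.127). It was lost too without both control replicates 1 and 4 (adjusted p = 0.181). Summed general T cell markers overlapped between groups as well, at 4454.5 to 6536 counts in knockouts and 4445 to 5584 in controls, with 1 of 8 (Lck) higher. The part of these cells in the result was not tested.

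Msr1 encodes scavenger receptor A1, a trimer with a collagen-like stem that takes up acetylated lipoprotein and bacteria. It is on chromosome 8, 39581685 to 39642673, minus strand (ENSMUSG00000025044). Knockout replicates 1 to 3 had 2756, 1756 and 2766 normalized counts and control replicates 1 to 4 had 3478, 4472, 4018 and 4292. Knockout replicate 2 was the lowest library and control replicate 1 the lowest control. Knockouts averaged 2426 ± 580.5 (SD, n = 3) and controls 4065 ± 433.8 (SD, n = 4), and limma gave -0.77 in log2 (SE 0.16, adjusted p = 0.0129). The call was lost without both control replicates 1 and 4 (log2 fold change -0.84, adjusted p = 0.0541) and without both control replicates 2 and 3 (-0.70, adjusted p = 0.0928), with 5 libraries left in each.

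Cd68, a heavily glycosylated protein of late endosomes and lysosomes that serves as a general macrophage marker, was the most abundant of the 10 in both groups. It lies on chromosome 11, 69664213 to 69666153, minus strand (ENSMUSG00000018774). The normalized counts were 4745.5 (knockout replicate 1), 5302 and 5295, against 8786 (control replicate 1), 7414, 6971 and 7594. The knockouts differed little from one another and all stood below the lowest control. The mean was 5114 ± 319.1 in knockouts (SD, n = 3) and 7691 ± 775.4 in controls (SD, n = 4), which limma put at -0.59 in log2 (SE 0.09, adjusted p = 0.00402). The call of Cd68 was lost with the title number as a replicate block (limma adjusted p = 0.0584). Cd68 is a member of the LAMP family of lysosomal membrane proteins. Lamp1 and Lamp2, the main proteins of that membrane, were lower too, with log2 fold changes of -0.39 (SE 0.08, adjusted p = 0.0133) and -0.35 (SE 0.07, adjusted p = 0.00988); both calls were lost without both control replicates 1 and 4 (adjusted p = 0.0843 for Lamp1 and 0.0768 for Lamp2). Lamp3, known from mature dendritic cells and alveolar type 2 cells, was higher at low counts, with 10.1, 31.7 and 29.8 in knockouts against 3.05, 2.94, 6.19 and 11.3 in controls, so that the groups overlapped. Its call (log2 fold change 1.87, SE 0.54, adjusted p = 0.038) was lost without knockout replicate 2 or 3 or control replicate 1, 2 or 3 (adjusted p 0.0602 to 0.133) and without either pair of controls (adjusted p = 0.0715 and 0.162). Epithelial markers were higher in 5 of 8 (Sftpc, Sftpb, Sftpa1, Epcam and Muc1) and lower in 0, and summed to 656 to 735 in knockouts against 412 to 456 in controls. Sftpc and Sftpb were low, at 3.76 to 12.2 and 1.77 to 8.13 normalized counts in controls. Both calls were lost without both control replicates 2 and 3 (limma adjusted p = 0.0669 and 0.0659), and that of Sftpc without knockout replicate 2 (adjusted p = 0.05002). Sftpb was under the minimum for testing without knockout replicate 1 or 3, and its call held in the other 5 fits that left out 1 library. Of 6 dendritic cell markers tested, 1 was higher (Ccr7), a call lost without knockout replicate 1 or 2 or control replicate 1, 2 or 4 (adjusted p 0.0501 to 0.0714). The call of Ccr7 was lost too without both control replicates 1 and 4 (adjusted p = 0.154). The part of these cells in the value of Lamp3 was not tested.

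A list of 10 general macrophage genes was drawn up after the receptor values were seen. Of these, 5 fell, 0 rose and 5 were not called, with a median log2 fold change of -0.49. Over all genes tested 11.3% were lower and 10.4% higher, and the counts of the other marker lists stand beside these shares too. Among the 5 general macrophage genes not called, Cd14 stood at 0.29 and Tyrobp at 0.21. Lgals3, a secreted galactose-binding lectin, changed by -0.93 on the log2 scale (SE 0.11, limma adjusted p = 0.00148) and Ctsb, a lysosomal protease, by -0.62 (SE 0.11, adjusted p = 0.00547). Mertk, a receptor for dying cells, changed by -0.58 (SE 0.11, adjusted p = 0.00857). The other 2 were Adgre1, lost without knockout replicate 1 or 2 or control replicate 1, 2 or 4 (adjusted p 0.051 to 0.118), and Csf1r, lost without knockout replicate 2 or control replicate 4 (adjusted p 0.0657 and 0.0567). Without both control replicates 1 and 4 both were lost, and without both control replicates 2 and 3 Csf1r was. Summed counts of the list were 67331 to 73228 in knockouts and 86500 to 103073 in controls. Markers of monocytes and recruited macrophages mostly moved the same way: 6 of 10 were lower, with Gpnmb and Ms4a7 at the lowest adjusted p, and 1 higher (Ccr2), and their sum was 19660 to 25595 in knockouts against 31344 to 42435 in controls. The calls of C1qa and C1qc, whose groups overlapped, were lost without knockout replicate 2 or 3 or control replicate 1, 3 or 4 (limma adjusted p 0.0721 to 0.155). Both were also lost without both control replicates 1 and 4 (adjusted p = 0.227 for C1qa and 0.191 for C1qc). Without both control replicates 2 and 3 C1qc was lost (adjusted p = 0.0608). Ccr2 was called with all libraries and was lost without any library but control replicate 4 (adjusted p 0.0581 to 0.112). It was lost too without both control replicates 2 and 3 (adjusted p = 0.170). The part of these cells, or of the macrophages as a whole, in the falls of Msr1, Cd68 and Cd93 was not tested.

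**Figure D2:**
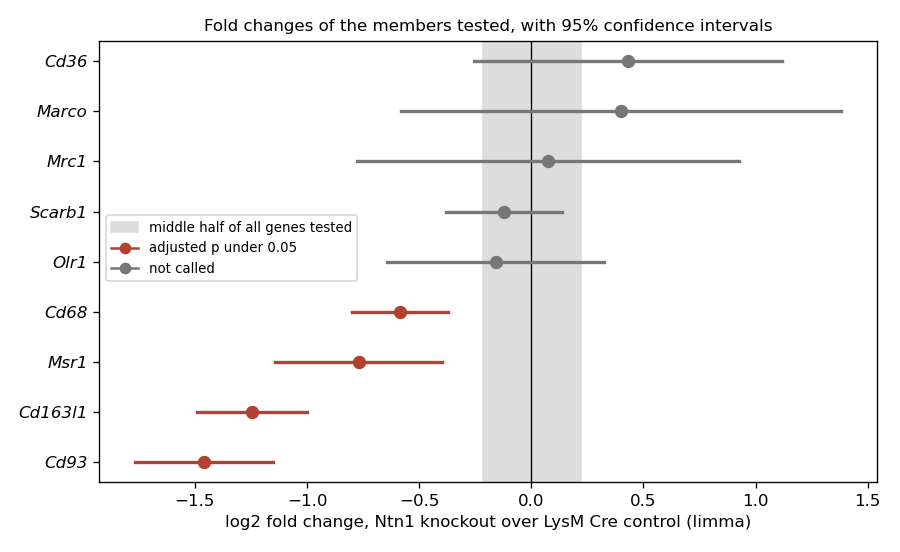
Limma log2 fold changes (horizontal axis, Ntn1 knockout over LysM Cre control) of the 9 receptors tested, with 95% confidence intervals; the grey band runs between the quartiles of all genes tested. The intervals of Cd93, Cd163l1, Msr1 and Cd68 lie below 0 (for Cd68 from -0.80 to -0.37), and those of the other 5 genes include 0.

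Marco and Olr1 are inducible receptors. Marco, a class A receptor with a collagen-like stem that binds bacteria and unopsonized particles, is a marker of alveolar macrophages. The gene (ENSMUSG00000026390, chromosome 1, 120474538 to 120505024) had 605.4, 672.1 and 277.3 normalized counts in knockouts and 771.9, 366.9, 223.9 and 282.1 in controls. Control replicate 1 was the highest of all 7 and the groups overlapped over most of their range. The log2 fold change was 0.40 (SE 0.43, limma adjusted p = 0.539), with a 95% interval from -0.58 to 1.38. Olr1, the lectin-like receptor for oxidized lipoprotein (ENSMUSG00000030162, chromosome 6, 129485244 to 129507165), had 1493, 2269 and 1914 in knockouts and 2750, 2244, 1435 and 2122 in controls, and both the lowest and the highest library were controls. Its log2 fold change was -0.16 (SE 0.21, adjusted p = 0.625; 95% interval from -0.64 to 0.33). It was 0.0014 without knockout replicate 1 and 0.055 without both control replicates 1 and 4.

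Cd36 and Scarb1 are the class B receptors, hairpin proteins with a membrane anchor at each end. Cd36 takes up long-chain fatty acids and oxidized lipoprotein. At chromosome 5, 17781690 to 17888801 (ENSMUSG00000002944), it had 800, 1669 and 1373 normalized counts in knockouts, against 858.2, 1309, 1039 and 581.8 in controls. Knockout replicates 2 and 3 were above all controls, while knockout replicate 1 lay among them. The log2 fold change of 0.43 (SE 0.30, limma adjusted p = 0.335) had a 95% interval from -0.26 to 1.12, and without knockout replicate 1 it was 0.74 (adjusted p = 0.0953). Scarb1, which exchanges cholesterol with high-density lipoprotein, is on the same chromosome at 125277087 to 125341094 (ENSMUSG00000037936). It had 516.1, 556.7 and 477.9 in knockouts and 626.6, 551.9, 619.5 and 465.2 in controls. Scarb1 had the narrowest interval of the receptors that were not called, from -0.38 to 0.14, around an estimate of -0.12 in log2 (SE 0.11, adjusted p = 0.471). Scarb2, the third of the class, a lysosomal protein that brings glucocerebrosidase to the lysosome, had 3402, 3271 and 3317 in knockouts against 4017, 4006, 4319 and 3695 in controls. Its change of -0.27 on the log2 scale (SE 0.07, adjusted p = 0.0284) was lost without knockout replicate 2 or 3 or control replicate 1, 2 or 3 (adjusted p 0.0533 to 0.0961) and under library total rescaling (adjusted p = 0.0586). Without control replicates 1 and 4 its adjusted p was 0.0597, and without control replicates 2 and 3 it was 0.146.

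Mrc1, the mannose receptor CD206, clears glycoproteins with exposed mannose and is abundant on alveolar macrophages. It varied more within the knockouts than between the groups. The gene (ENSMUSG00000026712, chromosome 2, 14229392 to 14332057) had 1911, 6479 and 4385 normalized counts in knockout replicates 1 to 3 and 4747, 4354, 2832 and 2867 in control replicates 1 to 4. The lowest and the highest of the 7 libraries were both knockouts. The means were 4259 ± 2287 in knockouts (SD, n = 3) and 3700 ± 995.4 in controls (SD, n = 4), and the log2 fold change was 0.073 (SE 0.38, limma adjusted p = 0.908), with a 95% interval from -0.78 to 0.93. Its sign depended on single libraries: it was 0.57 without knockout replicate 1, but -0.31 without knockout replicate 2, and just under 0 without knockout replicate 3, control replicate 3 or control replicate 4. Within the knockouts Cd36 and Olr1 had the same order as Mrc1, with replicate 2 highest and replicate 1 lowest. Cd68 had it too, with knockout replicates 2 and 3 close together (5302 and 5295 normalized counts). Siglecf, a defining marker of alveolar macrophages, also had this order, at 104.4, 506.7 and 245.7 in knockouts, against 359.5, 205.5, 106.2 and 180.6 in controls. Of the resident alveolar macrophage markers, Ear2, Itgax, Krt79 and Plet1 had the order too, but Car4, Chil3, Fabp4, Fabp5 and Marco did not. Neutrophil markers, of which 6 of 10 were called higher, summed to 68393 in knockout replicate 1, to 22836 and 23646 in knockout replicates 2 and 3, and to between 14783.5 and 17862.5 in controls. Of the 6 calls 3 were left without control replicate 2, and also 3 without control replicate 4. Leaving out the pair of controls 1 and 4 left 1 of them, and leaving out the pair 2 and 3 left 0. Erythroid markers were also highest in knockout replicate 1, at 136707, and lay between 1254 and 26210.5 in the other 6 libraries. Of 10 resident alveolar macrophage markers, Marco among them, 0 were higher and 1 lower (Fabp5), by limma; their summed counts overlapped between the groups. The part of these differences in cell content was not tested.

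Cd163, the receptor for haptoglobin-bound haemoglobin and a marker of tissue macrophages, was at the edge of detection. The gene (ENSMUSG00000008845, chromosome 6, 124304656 to 124330527) had 7, 4 and 6 reads in knockouts and 2, 1, 4 and 5 in controls. A count of 0 would allow up to 3 reads, so 2 of the libraries were within that limit. In normalized counts the knockouts held 7.10, 3.85 and 5.42 and the controls 2.03, 0.978, 3.54 and 6.27. The difference on the log2(normalized count + 1) scale was 0.75 (2-sided exact permutation p = 0.2 over 35 splits, smallest possible p 0.0286). The ratio of read rates, from 17 reads in knockouts and 12 in controls, was 1.78 (95% exact interval 0.801 to 4.08, which covers counting error only). A difference was not detectable at this depth.

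Per kilobase of exon, the level of the receptors ran over more than 3 orders of magnitude. The length was that of all annotated exons of a gene joined, so a gene with long unused exons reads low. Cd68 stood highest, at 4068 ± 253.8 normalized counts per kb in knockouts (SD, n = 3) and 6119 ± 616.9 in controls (SD, n = 4), above the next gene in every library of both groups. In knockouts Mrc1 (668.4), Olr1 (529.7), Msr1 (382.4), Cd36 (356.8) and Marco (269.2 per kb) came next, each overlapping its neighbour in that order. Below them, without overlap, stood Cd93 (97.0) and then Cd163l1 (75.9), which overlapped Scarb1. In controls the next were Msr1 (640.7), Olr1 (598.5) and Mrc1 (580.8), which overlapped. Cd93 (269.9), Cd36 (263.8), Marco (213.6) and Cd163l1 (180.0 per kb) followed below Mrc1, each overlapping its neighbour, and Cd163l1 lay above Scarb1. Msr1 thus ranked 4 of 10 in knockouts and 2 of 10 in controls, and Cd93 ranked 7 and 5. Scarb1, at 60.8 per kb in knockouts and 66.6 in controls, and Cd163, at 0.999 and 0.587, closed both orders.

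**Figure D3:**
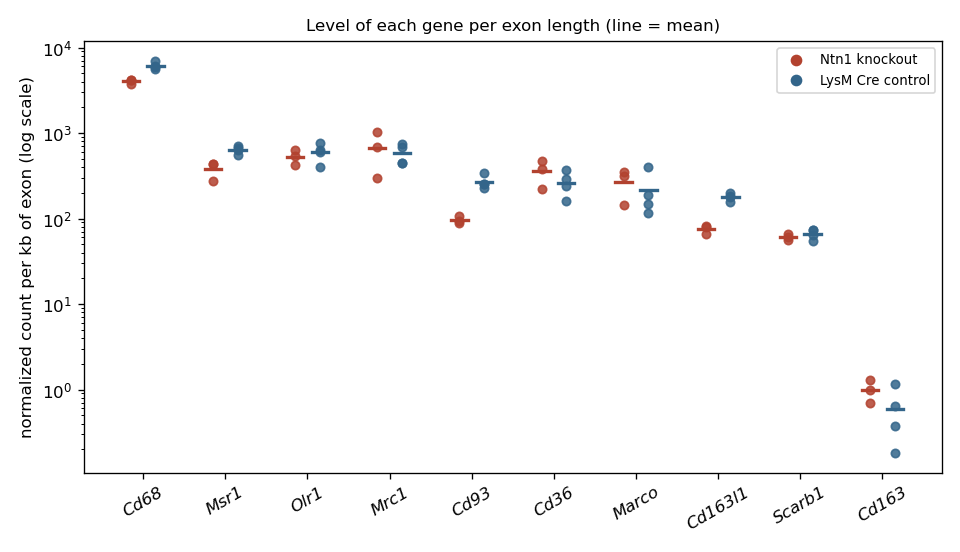
Normalized counts per kilobase of exon (vertical axis, log scale) of the 10 receptors, ordered by their control mean, in the 3 Ntn1 knockout (red) and 4 LysM Cre control libraries (blue); points are libraries and lines are group means. Cd68 lies above all others and Cd163, near 1 per kb, below all others in every library.

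Other scavenger receptors and genes that work with them were taken as 13 lists with 87 genes, of which 71 were analysed here and 70 tested. Of these 70 genes 25 were lower and 5 higher in knockouts by limma, with a median log2 fold change of -0.27. Over all genes tested 11.3% were lower and 10.4% higher, and the counts of the single lists below stand beside these shares. The counts of related genes moved with single libraries. Without knockout replicate 2, 16 were lower and 3 higher; without control replicate 4, 16 were lower and 5 higher; without control replicate 2, 18 were lower and 3 higher. Without both control replicates 1 and 4, 13 were lower.

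Of 5 receptors tested from the other classes 3 were lower in knockouts and 0 higher. Stab1, stabilin-1, which takes up modified lipoprotein and phosphatidylserine, had 1933, 1022 and 1593 normalized counts in knockouts against 3844, 3940, 5024 and 5011 in controls. Lrp1, a lipoprotein receptor-related protein that binds many ligands, had 6054, 7693 and 9781 against 18059, 20869, 20690 and 20383. Cxcl16, a membrane-bound chemokine that also binds oxidized lipoprotein, had 2245, 2040 and 2390 against 4691, 3824, 3359 and 5022. For each of these 3 the groups were apart, and the log2 fold changes were -1.59 for Stab1 (SE 0.20, limma adjusted p = 0.00174), -1.38 for Lrp1 (SE 0.15, adjusted p = 0.000963) and -0.91 for Cxcl16 (SE 0.14, adjusted p = 0.00324). Cd44, the hyaluronan receptor, which is counted in the same classes, was not called (-0.15, SE 0.08, adjusted p = 0.22). Nor was Clec7a, the beta-glucan receptor dectin-1 (-0.58, SE 0.35, adjusted p = 0.267), which was called lower without both control replicates 2 and 3 (adjusted p = 0.0437).

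Class F receptors, with epidermal growth factor-like repeats, went both ways. Pear1, a platelet and endothelial receptor, was higher at 435, 368.2 and 366.8 normalized counts in knockouts against 103.6, 169.3, 178.8 and 151.7 in controls (log2 fold change 1.39, SE 0.18, limma adjusted p = 0.00183). Scarf1, an endothelial and myeloid receptor for acetylated lipoprotein, was lower (-0.62, SE 0.17, adjusted p = 0.0337), and the call was lost without knockout replicate 1 or 2 or control replicate 1 or 4 (adjusted p 0.0724 to 0.101) and without both controls 1 and 4 (adjusted p = 0.142). Megf11, at 9.94 to 11.54 normalized counts in knockouts and 14.2 to 41.1 in controls, was lower as well (-1.23, SE 0.35, adjusted p = 0.0358), and was lost without any library but control replicate 1 (adjusted p 0.0656 to 0.0914) and without both control replicates 2 and 3 (adjusted p = 0.197). Platelet markers, of which 4 of 6 were tested, had 1 member higher (Itgb3, which macrophages also carry) and summed to 629.7 to 828.8 in knockouts and 335.4 to 439.8 in controls. Without Itgb3 the other 3 summed to 74.0, 77.9 and 100.3 in knockouts and 82.3, 62.6, 58.4 and 51.4 in controls, which overlap. The part of platelets in the rise of Pear1 was not tested. Of 6 tested proteins with cysteine-rich scavenger domains 1 was higher, the collagen cross-linking enzyme Loxl2 (1.52, SE 0.42, adjusted p = 0.0323), which stood at 18.97 to 22.3 normalized counts in knockouts and 2.51 to 10.6 in controls; it was lost without any knockout replicate and without control replicate 1 or 2 (adjusted p 0.0531 to 0.0864) and without both controls 1 and 4 (adjusted p = 0.0770). Neither tested relative of Mrc1 (Mrc2 and Ly75) nor Colec12, the tested class A relative, was called.

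Partners that sit beside the receptors or carry their signals were mostly not called: of 13 tested, 2 were lower, 1 was higher and 10 were not called. Over all genes tested 21.7% were called. The tyrosine kinase gene Fyn, which acts below Cd36 and is also abundant in T and natural killer cells, was higher at 2350, 2508 and 2434 normalized counts in knockouts against 1235, 1464, 1538 and 1493 in controls (log2 fold change 0.77, SE 0.08, limma adjusted p = 0.000987). Its relative Src was lower, at 114.6, 194.2 and 165.3 against 492.6, 299.4, 246 and 353.6 (-1.12, SE 0.25, adjusted p = 0.0147, and adjusted p = 0.0753 without both control replicates 1 and 4). Itgb2, the beta chain of the leukocyte integrins, was lower (-0.39 in log2, SE 0.10, adjusted p = 0.021), a call lost without knockout replicate 2 or control replicate 2 or 4 (adjusted p 0.0546 to 0.0688) and without both controls 1 and 4 (adjusted p = 0.127). The lipopolysaccharide receptor genes Tlr4 (-0.088, SE 0.063, adjusted p = 0.346) and Cd14 (0.29, SE 0.13, adjusted p = 0.151) were not called.

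Genes that handle what the receptors bring in were more often lower than higher. Of 12 genes of cholesterol and fatty acid handling 7 were lower and 1 higher. Acsl1 was lost without knockout replicate 1 or 2 or control replicate 1, 2 or 4 (limma adjusted p 0.0696 to 0.0899). Npc2 was lost without knockout replicate 2 or 3 or control replicate 4 (adjusted p 0.0613 to 0.0682). Without both control replicates 1 and 4, Nceh1, Npc2 and Acsl1 were lost (adjusted p = 0.0872, 0.116 and 0.187). Soat1, which esterifies cholesterol for storage, had 3697, 4116 and 4271 normalized counts in knockouts against 6702, 6644, 5775 and 6538 in controls (log2 fold change -0.67, SE 0.08, limma adjusted p = 0.00153), and Abca1, which exports cholesterol, 2962, 2693 and 4567 against 9866, 7299, 8773 and 11109 (-1.46, SE 0.20, adjusted p = 0.00204). Dgat1, which makes triglyceride, was the higher one (1.04, SE 0.13, adjusted p = 0.00165). Of 8 genes that clear haemoglobin and haem 2 were lower and 0 higher, beside 11.3% lower and 10.4% higher over all genes tested. Hmox1, haem oxygenase 1, had 5211, 4350 and 4998 in knockouts against 8666, 9266, 9757 and 10191 in controls (-0.97, SE 0.09, adjusted p = 0.000655), and Slc48a1, which moves haem out of the lysosome, was lower by a smaller step (-0.34, SE 0.09, adjusted p = 0.032), lost without knockout replicate 2 or 3 or control replicate 1, 3 or 4 (adjusted p 0.0642 to 0.104) and without both controls 1 and 4 (adjusted p = 0.187). The summed haemoglobin and other erythroid transcripts were 6936 to 136707 normalized counts in knockouts and 1254 to 26210.5 in controls, which overlap.

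Of 14 transcription factors known to act on these receptor genes 5 were lower and 0 higher. Cebpa, a factor of myeloid differentiation, had 550.6, 617.3 and 481.5 normalized counts in knockouts against 1162, 879.7, 1281 and 1144 in controls (log2 fold change -1.01, SE 0.13, limma adjusted p = 0.00192). The calls of Nr1h3, Rxra and Maf each depended on single libraries and were lost with at least 3 of the 7 left out, at adjusted p between 0.0519 and 0.104, and each was also lost with at least 1 of the pairs of controls left out. Neither Spi1, which encodes PU.1, nor Pparg, the lipid-sensing receptor that drives Cd36, was called.

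**Figure D4:**
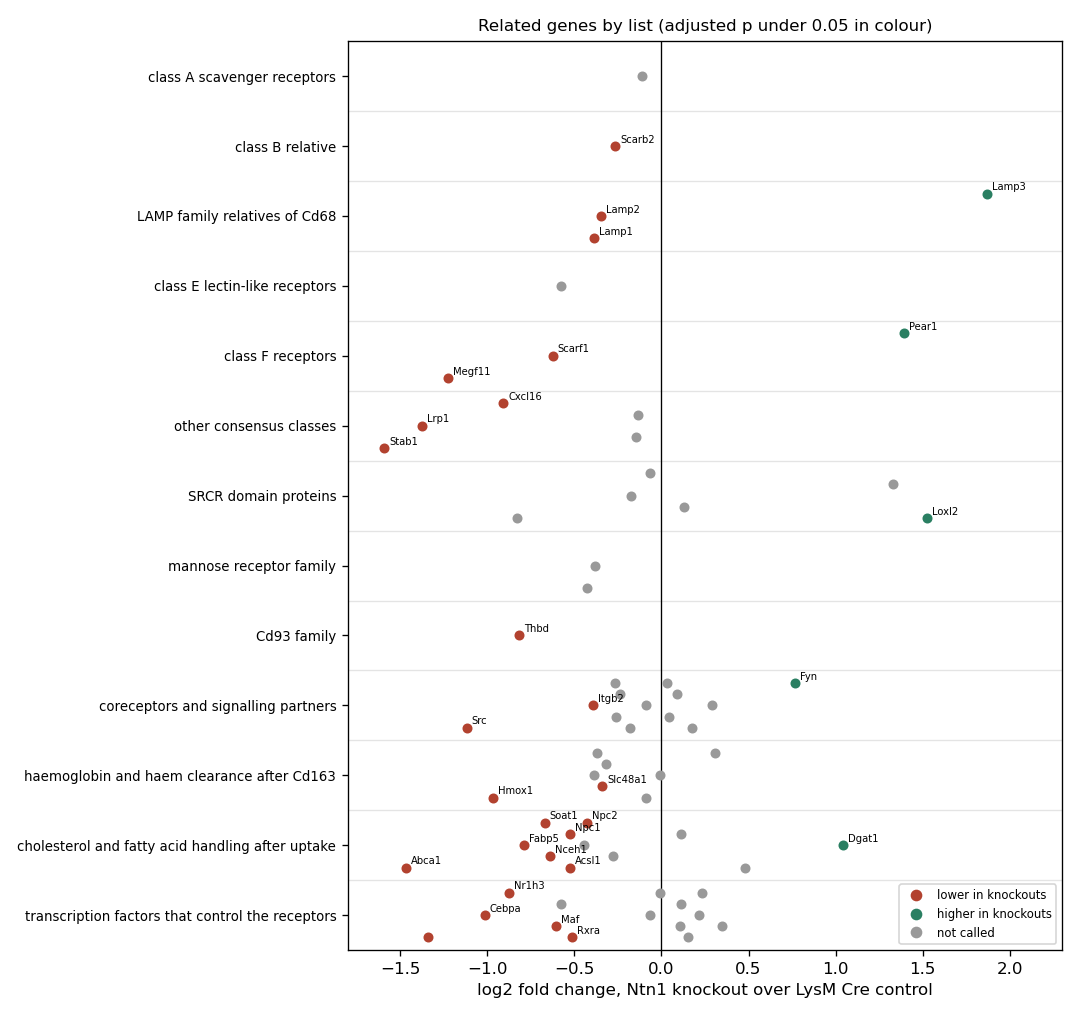
Limma log2 fold changes (horizontal axis, Ntn1 knockout over LysM Cre control) of the 70 related genes tested, 1 row per list; red and green points are genes lower and higher at an adjusted p under 0.05, most with their symbols, and grey points were not called. Stab1 at -1.59 and Abca1 at -1.46 lie farthest left among those called, and Lamp3 at 1.87 farthest right.

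The profiles closest to each of the receptors that fell were found by the root mean square difference of centred log2 values over the 7 libraries, naming 3 genes each. For Cd93 they were Stard9 (0.131), Tlr7 (0.135) and Tlr8 (0.141), and for Cd163l1 Usp35 (0.134), Plekhn1 (0.153) and Pgap1 (0.158). For Msr1 they were Crybg3 (0.0798), Emilin2 (0.0827) and Pfkm (0.0915), and for Cd68 Uap1l1 (0.0439), Igsf8 (0.0548) and Wdr81 (0.0556). The measure is in log2 units and picks genes with a like fold change, so it is a description of these libraries. None of the 12 was itself one of the 10 receptors, and the 4 receptors had no close gene in common. Receptors of unlike fold change would rarely share any of their 3 closest genes by this measure, so no conclusion is drawn from that.

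In the authors' deposited table the log2 fold changes of the 4 receptors were smaller in size than these, at -1.32 for Cd93, -1.15 for Cd163l1, -0.65 for Msr1 and -0.56 for Cd68.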

How the data were processed

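The submitters' processing notes name GRCm38 (mm10) and the tools HTSeq, DESeq2, STAR 2.5.3a and cutadapt 1.15. Their settings, the strand rule and the annotation counted were not given in sources used here. Values in the authors' deposited table are a signal column per library, read counts divided by a size factor, and, per the file headers, their log2 fold change, its standard error and statistic (each a score), p-value and adjusted p-value. Every value was a whole multiple of 1 step (100% within 0.01), so whole reads were recovered.

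Groups came from the titles. limma 3.58.1 (R 4.3.3, eBayes with trend) was run on log2(normalized count + 1) for genes with a mean of at least 10; fold changes of low genes are understated on this scale. edgeR 4.0.16 called 1365 genes higher and 1497 lower from these reads. Cd163 was compared by an exact permutation test. The limma step was tested on simulated data. Alternatives were other pseudocounts, filters, scalings and tools, a block, and libraries left out. Intervals on reads cover counting error only.

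Positions and exon lengths came from GENCODE M21, which matched 99.8% of identifiers, and 21 symbols that had become dates were restored. No exon of a receptor overlapped another annotated gene's exon. Promoters came from RefSeq. The receptors and lists were chosen with earlier results of these data known. Named are the 10 receptors; every called gene of a list, or the 2 with lowest adjusted p per direction where over 4 were called; and the 3 genes closest in profile to each called receptor. Others were chosen after their values were seen. Some genes that this rule names are not reported here.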

Additional observations from a re-analysis of the deposited data

How the results depend on the processing

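The calls of Cd93 and Cd163l1 held under all 21 alternatives run, with log2 fold changes from -1.61 to -1.31 and from -1.31 to -1.14. Cd68 was called in 20 of 21 and Msr1 in 18. The number of receptors lower was 4 under every alternative that left out 1 library, and 0 were higher throughout. Over all genes, leaving out 1 library gave 695 to 1172 higher and 820 to 1303 lower. The fit without both control replicates 1 and 4 gave 624 higher and 567 lower, and that without both control replicates 2 and 3 gave 622 and 620. Of related genes, leaving out 1 library gave 3 to 5 higher and 16 to 23 lower, a minimum mean of 50 gave 3 higher, and 13 were lower without both control replicates 1 and 4. Among genes not called, leaving out 1 library moved the log2 fold change across 0 for Mrc1 (-0.31 to 0.57), Olr1 (-0.34 to 0.0014), Siglecf (-0.27 to 0.86) and Trdc (-0.29 to 0.032). Without both control replicates 1 and 4, Olr1 stood at 0.055 and Trdc at 0.14; without both control replicates 2 and 3, Siglecf stood at -0.11. The cause was not tested.

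Deviations of same-numbered libraries correlated at -0.229, -0.0253 and -0.188 by title number and at -0.0768, -0.285 and 0.0762 by column number. Neither numbering showed pairing in these few values, which cannot exclude a shared batch or day. With the title number as a replicate block, a fit to which control replicate 4, alone with its number, adds nothing to the difference, 424 genes were higher and 382 lower, 2 receptors were lower and 10 related genes were lower, Mrc1 stood at -0.036 and Trdc at 0.032. With the number in the column names as a block, a choice made after seeing the data in which control replicate 1 is alone, 591 genes were higher and 605 lower, and 3 related genes were higher and 12 lower. Depth limited Cd163.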

Other observations

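Some related receptors showed separate or nearly separate groups without a call by limma. Groups did not overlap in 33.8% of all genes tested. Scarf2, a class F receptor under the minimum for testing and close to the limit of 3 reads in controls, had 10.1, 9.61 and 9.94 normalized counts in knockouts against 4.06, 0.978, 3.54 and 2.51 in controls. Dmbt1, a secreted protein of mucosal surfaces with many scavenger receptor cysteine-rich domains, had 64.9, 57.7 and 26.2 in knockouts against 38.6, 13.7, 9.73 and 18.8 in controls (log2 fold change 1.33, SE 0.47, limma adjusted p = 0.0743). With 1 library left out the adjusted p of Dmbt1 ran from 0.0250 to 0.196, and it was called without knockout replicate 3 and without control replicate 1. It was also called without both control replicates 1 and 4 (log2 fold change 1.91, adjusted p = 0.0427). Without both control replicates 2 and 3 it was not (0.75, adjusted p = 0.341). In the authors' deposited DESeq2 values the adjusted p of Dmbt1 was 0.0426. Mrc2, the collagen-binding relative of Mrc1, had 14.2, 12.5 and 12.6 in knockouts against 18.3, 17.6, 21.2 and 15.05 in controls (log2 fold change -0.42, SE 0.23, adjusted p = 0.215). These genes were chosen after their values were seen.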
